A study of Mus musculus with 6 samples.

Results

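The long intergenic noncoding RNAs (lincRNAs) described here are the rows of the deposited gene count table that carry the biotype lincRNA and that had a mean of at least 20 raw counts over the 6 kidney libraries. This rule took 286 of 5559 lincRNA rows in a table of 54532 genes. Kidneys came from 3 WT mice and 3 Trpm2-/- mice of the strain C57BL/6J, labelled as 6 to 8 weeks old, and every mouse had received 18 mg/kg cisplatin, a nephrotoxic chemotherapy drug, 72 h before the tissue was taken. Trpm2-/- mice carry a germline deletion that removes transmembrane segments of TRPM2, a calcium-permeable cation channel opened by oxidative stress. By the methods the animals were male, the Trpm2-/- line came from another university and the WT mice were bought from a supplier, so the genotypes were not stated to be littermates, and the methods give an older age range than the labels. The libraries are numbered 1, 2 and 3 for WT and 1, 2 and 4 for Trpm2-/- kidneys. No kidney without cisplatin is in the comparison, so it is one between genotypes under treatment.

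LincRNAs are transcripts that lie between protein-coding genes and carry no long open reading frame. Many are spliced, capped and polyadenylated like mRNAs, are present at low levels and are restricted to particular cell types. A few are among the most abundant RNAs of the nucleus, where they are held in speckles or build nuclear bodies, and others serve as the precursors of miRNAs or small nucleolar RNAs. In the kidney, as in other solid tissues, their roles in acute injury are known for only a small number of them.

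Total gene counts per library ran from 14053307 to 17150089, and 3 counts, the limit that a count of 0 allows, corresponded to 0.175 to 0.213 CPM, which are counts scaled to library size. Trpm2 itself had 5, 5 and 27 counts in WT and 10, 16 and 20 counts in Trpm2-/- kidneys (log2 fold change 0.36, adjusted p = 0.776), and since a whole-gene count covers the exons that the allele keeps, it does not check the labels. Of the cell type markers, all 8 of the proximal tubule fell, with a summed level of 7721 to 9944 CPM in WT and 2278 to 3789 CPM in Trpm2-/- kidneys, and 2 of 5 markers of injured tubules rose, with a sum of 2765 to 3290 CPM and 3849 to 4862 CPM. Of the 5 collecting duct markers 4 were tested and 1 fell, with a sum of 1088 to 1389 CPM in WT and 584 to 729 CPM in Trpm2-/- kidneys. Of the 4 of the thick ascending limb and distal convoluted tubule 3 were tested and 1 fell, with sums of 787 to 2153 CPM and 254 to 903 CPM. The 6 macrophage markers, of which 1 fell, summed to 146 to 173 CPM and 146 to 199 CPM. Other sets, with no marker called, ranged more widely among Trpm2-/- than among WT kidneys. The sums were 95.1 to 136 CPM in WT and 97.9 to 385 CPM in Trpm2-/- kidneys for podocytes. For endothelium they were 58.7 to 67.7 CPM and 33.0 to 142 CPM, and for fibroblasts 49.8 to 71.1 CPM and 35.0 to 123 CPM. The 6 lymphocyte markers summed to 2.65 to 4.79 CPM in WT and 5.46 to 6.41 CPM in Trpm2-/- kidneys. Only 2 of these 6 passed the filter on low counts and were tested, and neither was called. In whole tissue, fewer cells of a type and less RNA per cell cannot be told apart, and the part of these markers in the lincRNA results was not tested.

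The lincRNAs were selected on the raw counts of both genotypes together and not on their difference, so the levels of the 286 lincRNAs are a description of what was selected. At the edge of the rule, AI839979 and Gm26637 were just inside with mean counts of 20.2 and 20.3, and Gm17705 and Gm49291 were just outside with 19.8 each. All 286 passed the filter on low counts and were tested. The mean count was under 20 in 1 genotype for 36 of them, 18 in WT and 18 in Trpm2-/- kidneys, and these entered through the other genotype. Their levels were low and wide. Mean FPKM (fragments scaled to gene length and library size, as deposited by the authors) had a median of 1.69, an interquartile range of 0.836 to 3.57 and a maximum of 225, where the protein-coding genes tested had a median of 4.77. FPKM was above 10 for 25 lincRNAs and under 1 for 85. Their biological coefficient of variation between libraries of a genotype had a median of 0.288, against 0.173 for protein-coding genes. In the annotation they had a median of 3 exon blocks and 2124.5 exonic bases over a span of 5.88 kb, and 53 had a single block. The RefSeq annotation matched 188 of them by gene and listed 175 as lncRNA, 11 as protein-coding and 2 as pseudogene. None of the 11 was called by edgeR, DESeq2 or limma-voom, 0 of them had an unadjusted p under 0.05 in edgeR, and their log2 fold changes lay between -0.46 and 0.70. Beside 12.0% of all genes called by edgeR, a count of 0 among 11 is no result about them.

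A total of 9 lincRNAs rose and 16 fell in Trpm2-/- kidneys when called by the quasi-likelihood test of edgeR at an adjusted p under 0.05, which is 3.15% and 5.59% of the 286. Over all 15816 genes tested the same call took 12.0%, with 4.74% higher and 7.28% lower, and over protein-coding genes 13.1%, with 5.03% higher and 8.04% lower. Taken in either direction, 8.74% of the 286 were called, a share below the background that was not tested. The threshold of the methods was an absolute log2 fold change above 1 with an unadjusted p under 0.05. By it, 16 were higher (5.59%) and 24 lower (8.39%), where all genes gave 3.50% and 4.10%. The share of lincRNAs was thus above the background by this threshold, a difference that was not tested. Some of those counted entered the set through 1 genotype, such as C730036E19Rik and Gm26669 through the Trpm2-/- libraries and Gm11752 through WT. The lincRNAs also varied more between libraries of a genotype than all genes tested (median biological coefficient of variation 0.288 beside 0.188). The median log2 fold change was -0.03, beside 0.02 over all genes, and ran from -0.08 to 0.07 when 1 library was left out, so its sign was not fixed, and 138 values were above 0 and 148 below. The 3 libraries of one genotype lay wholly above those of the other for 82 lincRNAs (28.7%), 39 higher and 43 lower, beside 33.5% of all genes, 16.7% higher and 16.8% lower. All 25 called lincRNAs were among the 82, which a call with 3 libraries per genotype makes likely, so this is no separate evidence. The counts changed when single libraries were left out: without WT replicate 2 there were 3 higher and 9 lower, and without WT replicate 3 there were 2 and 7. Without KO replicate 4 there were 5 higher and 23 lower, and without KO replicate 1 there were 6 and 10. Leaving out a library also lowers the power of the test for every gene, and that part was not tested. The call was kept in all 16 alternative analyses by 9 of the 25, namely Malat1, Gm26809, BC049987, AI314278, D630029K05Rik, Gm16755, Gm15889, Gm27216 and Gm44386, and the other 16 lost it in at least 1 of them. None of the 25 changed direction in any of these analyses.

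**Figure D1:**
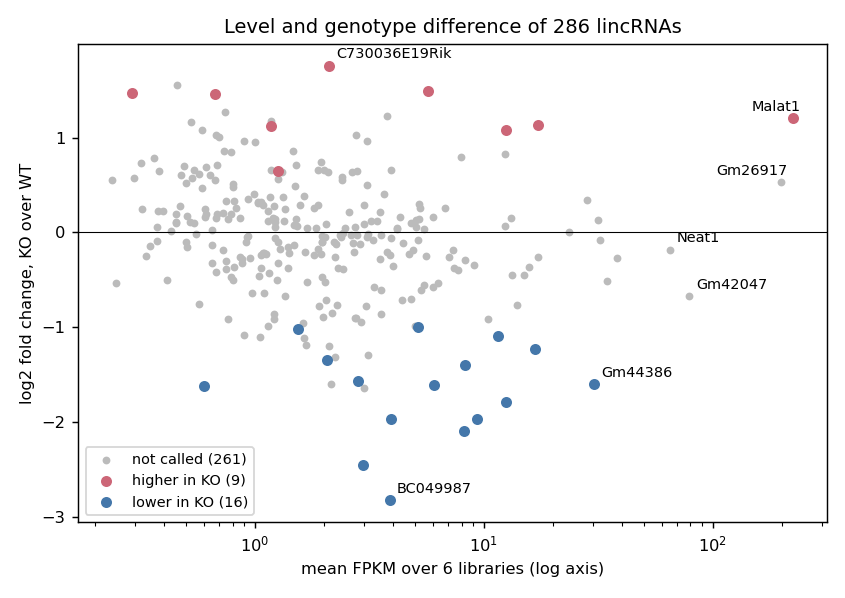
Mean FPKM over the 6 libraries (x axis, log scale) against the log2 fold change of Trpm2-/- (KO) over WT kidneys (y axis) for 286 lincRNAs. Filled red and blue points are the 9 higher and 16 lower at an adjusted p under 0.05, and of the 4 most abundant lincRNAs, at the right, Malat1 alone was called.

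A total of 4 transcripts carried most of the lincRNA counts, and one of them, Malat1, rose. Malat1 (chr19:5795690-5802672, minus strand) is a nuclear RNA of a single exon block that is concentrated in nuclear speckles, the domains that store splicing factors. It was measured at 1218, 942 and 1089 CPM in the 3 WT kidneys and at 2289.7, 2584 and 2609 CPM in the 3 Trpm2-/- kidneys. Every Trpm2-/- value was above the highest WT value (log2 fold change 1.20, SE 0.17, adjusted p = 0.00338). Windows of 75 bases of its transcripts were found in another gene for 5.51% of them. With Malat1 the 286 lincRNAs took 0.609%, 0.538% and 0.641% of the gene counts in WT (mean 0.596% ± 0.0530, SD, n = 3) and 0.612%, 0.833% and 0.804% in Trpm2-/- kidneys (mean 0.750% ± 0.120, SD, n = 3), values that overlapped (p = 0.2, two-sided exact permutation test). Without Malat1 the shares were 0.491% ± 0.0440 and 0.491% ± 0.0978 (SD, n = 3 each, p = 1, exact permutation test). Malat1 alone took 0.105% ± 0.0181 and 0.258% ± 0.0232 of the counts (SD, n = 3 each), with p = 0.1 in the exact permutation test, the smallest that 3 against 3 can give. Within the lincRNA counts its share was 17.6% in WT and 34.8% in Trpm2-/- kidneys. The share of counts on mitochondrial genes, which enters the same totals, was 4.57% and 8.96%.

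**Figure D2:**
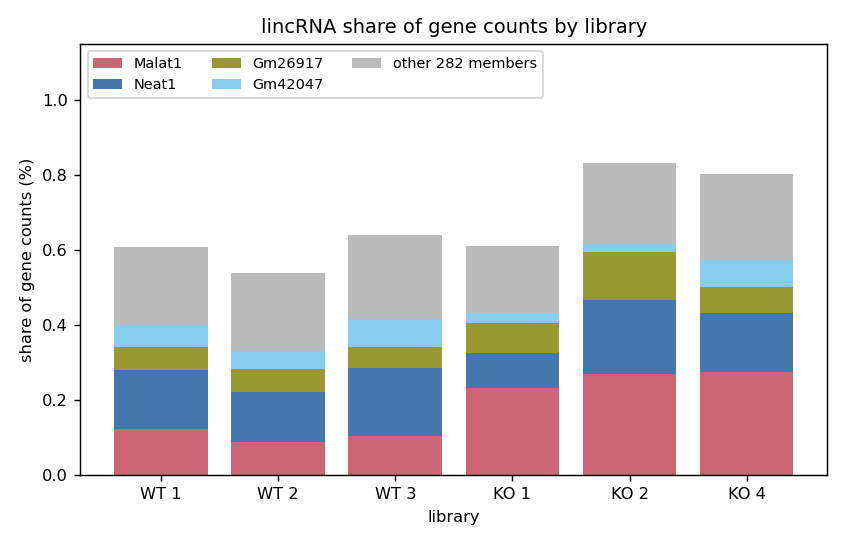
Share of gene counts (y axis, %) on Malat1, Neat1, Gm26917, Gm42047 and the other 282 lincRNAs in each library (x axis), stacked. The Malat1 segment was larger in each of the 3 Trpm2-/- (KO) libraries than in each WT library, and the total in KO 1, 0.612%, lay within the WT range of 0.538% to 0.641%.

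Neat1, the scaffold RNA of paraspeckles, lies on the same strand, 22035 bases from Malat1 (chr19:5824708-5845478). Its level was 1542, 1433 and 1923 CPM in WT and 924, 1883 and 1508 CPM in Trpm2-/- kidneys, and the groups overlapped (log2 fold change -0.18, SE 0.25, adjusted p = 0.683). The log2 ratio of Malat1 to Neat1 counts within a library, chosen after the values of both were seen, was -0.34, -0.60 and -0.82 in WT and 1.31, 0.46 and 0.79 in Trpm2-/- kidneys. Neat1 thus had more counts than Malat1 in every WT library and fewer in every Trpm2-/- library, with p = 0.1 in the exact permutation test, the smallest possible for 3 against 3. Gm26917 (chr17:39843013-39846341, plus strand) was second by mean FPKM (198). It stood at 603, 684 and 562 CPM in WT and 789, 1227 and 647 CPM in Trpm2-/- kidneys (log2 fold change 0.53, SE 0.23, adjusted p = 0.166). KO 2 was its highest library, and without it the log2 fold change was 0.22, while with no filter on low counts Gm26917 was called (adjusted p = 0.0488). Gm42047 (chr8:121833247-121841178, plus strand) had 569, 517 and 787 CPM in WT and 255, 218 and 699 CPM in Trpm2-/- kidneys (log2 fold change -0.68, SE 0.39, adjusted p = 0.299). Without KO 4 it was -1.39 and called (adjusted p = 0.0063), and it was also called with no filter (-0.69, adjusted p = 0.0022), while without KO 2 it was -0.39. KO 4 lay inside the WT range of Gm42047 while KO 1 and KO 2 were below it, and 56.1% of its 75-base windows were also found in other genes, so its reads cannot be assigned to it with certainty. The fifth by FPKM, Tmem250-ps, which RefSeq lists as protein-coding, had 113, 129.9 and 112 CPM in WT and 87.8, 109 and 97.5 CPM in Trpm2-/- kidneys (log2 fold change -0.27, SE 0.13, adjusted p = 0.23). Malat1, Neat1, Gm26917 and Gm42047 together held 63.9% of the lincRNA counts in WT and 71.9% in Trpm2-/- kidneys.

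Among the Trpm2-/- kidneys, KO 1 was the lowest of the 3 for 167 of the 286 lincRNAs (58.4%), where 34.9% of all genes tested were lowest in it. KO 4 was the highest for 147 and KO 1 for 28. In WT kidneys the highest library was WT 3 for 125, WT 2 for 88 and WT 1 for 73. The lincRNAs thus tended to be lowest in KO 1. Neat1 was one of them, with 924 CPM in KO 1 beside 1883 and 1508 CPM in KO 2 and KO 4. Malat1 was also lowest in KO 1, within a narrower range of 2289.7 CPM beside 2584 and 2609 CPM.

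The 8 other lincRNAs that rose were expressed at low to moderate levels. C730036E19Rik (chr1:151138034-151142345, plus strand) had the largest difference, with 1.604, 0.707 and 1.29 CPM in WT and 3.37, 3.89 and 4.98 CPM in Trpm2-/- kidneys (log2 fold change 1.76, SE 0.38, adjusted p = 0.0183). Wincr1 (chr4:89050308-89084614, plus strand), named for its induction by WNT signalling, had 3.52, 2.44 and 1.78 CPM in WT and 5.63, 4.78 and 11.4 CPM in Trpm2-/- kidneys (log2 fold change 1.49, SE 0.40, adjusted p = 0.041). The spread of Wincr1 in Trpm2-/- kidneys was wide, with KO 4 well above the others. 2610037D02Rik (chr15:96134819-96284495, minus strand) was measured at 1.17, 0.578 and 0.859 CPM in WT and 2.69, 2.94 and 1.68 CPM in Trpm2-/- kidneys (log2 fold change 1.47, SE 0.42, adjusted p = 0.0496). Gm26669 (chr12:80108034-80113000, plus strand) was measured at 0.678, 0.707 and 0.798 CPM in WT and 2.14, 1.71 and 2.18 CPM in Trpm2-/- kidneys (log2 fold change 1.46, SE 0.37, adjusted p = 0.0335). Both stayed under 3 CPM in every library. Of the exonic bases of Gm26669, 92.5% lie in Zfp36l1 on the opposite strand, and with a library kit that does not mark strand the reads of both cannot be told apart.

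AC135964.2 (chr16:86770227-86806513, minus strand) and Gm26809 (chr6:18844220-18847360, plus strand) were the most abundant of the rising lincRNAs after Malat1. AC135964.2 had 26.3, 29.4 and 18.6 CPM in WT and 49.9, 73.3 and 39.9 CPM in Trpm2-/- kidneys (log2 fold change 1.13, SE 0.24, adjusted p = 0.0171). Gm26809 had 32.3, 27.2 and 22.02 CPM in WT and 71.4, 54.6 and 46.8 CPM in Trpm2-/- kidneys (log2 fold change 1.08, SE 0.19, adjusted p = 0.00832), and 28.7% of its exonic bases are shared with Gm20186. In both, the lowest Trpm2-/- library was above the highest WT library. 5430427N15Rik (chr5:103354306-103356698, minus strand) had 1.79, 2.31 and 1.96 CPM in WT and 4.22, 4.23 and 4.73 CPM in Trpm2-/- kidneys (log2 fold change 1.12, SE 0.29, adjusted p = 0.0339). Mirt1 (chr19:53441212-53464796, minus strand), named for its association with myocardial infarction, had 9.87, 10.02 and 9.26 CPM in WT and 13.2, 15.2 and 17.3 CPM in Trpm2-/- kidneys (log2 fold change 0.65, SE 0.18, adjusted p = 0.0478). The WT values of Mirt1 were close together, and it was the one called lincRNA of the 9 with a log2 fold change under 1. Mirt1 lost the call in 10 of the 16 alternative analyses. In 3 of the 9, C730036E19Rik, 2610037D02Rik and Gm26669, the mean count was under 20 in WT kidneys, so these entered the set through the Trpm2-/- libraries.

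The 16 lincRNAs that fell included the largest differences of the set. BC049987 (chr9:44670453-44672238, minus strand) had 9.07, 14.5 and 10.4 CPM in WT and 0.918, 2.32 and 1.56 CPM in Trpm2-/- kidneys (log2 fold change -2.83, SE 0.36, adjusted p = 0.00251). Gm11752 (chr11:119220160-119222473, plus strand) had 2.097, 3.598 and 3.13 CPM in WT and 0.184, 0.41 and 0.996 CPM in Trpm2-/- kidneys (log2 fold change -2.45, SE 0.55, adjusted p = 0.0211), with its KO 1 value near the limit that a count of 0 allows. Its mean count was under 20 in Trpm2-/- kidneys, so it entered the set through the WT libraries. Neither overlapped between genotypes. AI314278 (chr7:89426306-89441928, plus strand) ranged more widely, with 25.2, 37.7 and 64.4 CPM in WT and 4.897, 10.1 and 14.9 CPM in Trpm2-/- kidneys (log2 fold change -2.09, SE 0.42, adjusted p = 0.013). D630029K05Rik (chr10:116964707-116969105, plus strand) had 34.1, 44.01 and 60.2 CPM in WT and 8.39, 10.1 and 16.9 CPM in Trpm2-/- kidneys (log2 fold change -1.96, SE 0.29, adjusted p = 0.00391). In both, WT 1 was the lowest of the WT and KO 4 the highest of the Trpm2-/- kidneys. Gm16755 (chr11:120486339-120488582, minus strand) had 6.78, 5.98 and 7.301 CPM in WT and 1.22, 1.502 and 2.37 CPM in Trpm2-/- kidneys (log2 fold change -1.97, SE 0.32, adjusted p = 0.00575), and 21.4% of its exonic bases lie in Mrpl12 on the opposite strand.

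Gm10804 (chr2:93452819-93469871, plus strand) was the most abundant lincRNA by CPM among those that fell, with 65.5, 65.3 and 85.5 CPM in WT and 13.2, 10.3 and 38.98 CPM in Trpm2-/- kidneys (log2 fold change -1.79, SE 0.42, adjusted p = 0.025). Its KO 4 value stood above those of KO 1 and KO 2 and still below all WT values. Gm42397 (chr7:70870913-71073345, plus strand) had 3.701, 4.18 and 5.46 CPM in WT and 0.857, 1.23 and 2.24 CPM in Trpm2-/- kidneys (log2 fold change -1.62, SE 0.40, adjusted p = 0.0306). Gm17750 (chr13:84025297-84064772, minus strand) had 3.95, 6.43 and 6.13 CPM in WT and 2.02, 2.18 and 1.18 CPM in Trpm2-/- kidneys (log2 fold change -1.61, SE 0.35, adjusted p = 0.0183). Both of the latter were under 7 CPM in every library. Gm44386 (chr6:86513891-86516273, minus strand), the highest of the falling lincRNAs by mean FPKM (30.2), had 16.5, 26.7 and 23.5 CPM in WT and 6.24, 7.72 and 8.09 CPM in Trpm2-/- kidneys (log2 fold change -1.60, SE 0.22, adjusted p = 0.0034). 0610006L08Rik (chr7:74818818-74853813, minus strand) had 7.09, 9.32 and 14.4 CPM in WT and 2.88, 2.87 and 4.61 CPM in Trpm2-/- kidneys (log2 fold change -1.57, SE 0.33, adjusted p = 0.016).

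The other falling lincRNAs had smaller differences. Gm15889 (chr8:94377872-94380317, plus strand) had 26.8, 27.2 and 46.6 CPM in WT and 11.3, 13.7 and 13.3 CPM in Trpm2-/- kidneys (log2 fold change -1.39, SE 0.23, adjusted p = 0.00602), and Gm27216 (chr9:83240481-83254540, minus strand) had 16.6, 21.5 and 20.2 CPM in WT and 7.16, 8.19 and 9.53 CPM in Trpm2-/- kidneys (log2 fold change -1.23, SE 0.19, adjusted p = 0.00512). Gm48558 (chr12:15842758-15850625, minus strand) was low throughout, with 3.64, 3.15 and 3.19 CPM in WT and 1.35, 1.502 and 1.06 CPM in Trpm2-/- kidneys (log2 fold change -1.35, SE 0.32, adjusted p = 0.0279). In all of these the Trpm2-/- libraries lay close together. AI480526 (chr5:123133723-123141666, minus strand) and Gm38102 (chr5:123133939-123137695, plus strand) occupy the same locus on opposite strands and share 66.6% and 76.02% of their exonic bases with other genes, so their calls are not separate. AI480526 had 35.8, 33.03 and 41.7 CPM in WT and 13.4, 19.3 and 22.9 CPM in Trpm2-/- kidneys (log2 fold change -0.99, SE 0.20, adjusted p = 0.0139). Gm38102 had 5.06, 4.37 and 4.72 CPM in WT and 2.02, 2.73 and 2.24 CPM in Trpm2-/- kidneys (log2 fold change -1.02, SE 0.28, adjusted p = 0.0447). All 8 proximal tubule markers fell in the same kidneys, and whether the falling lincRNAs belong to tubule cells was not tested.

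**Figure D3:**
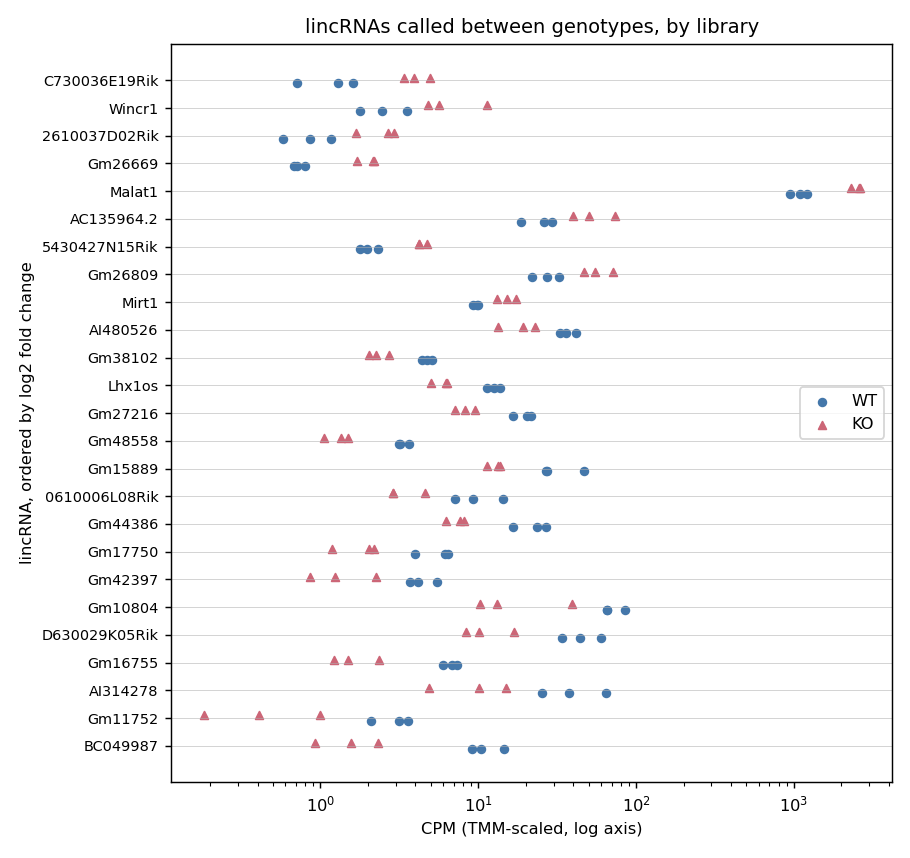
CPM (x axis, log scale) of the 25 called lincRNAs (y axis, ordered by log2 fold change) in each of 3 WT (circles) and 3 Trpm2-/- (KO, triangles) kidneys. For each of the 25, the 3 WT and the 3 KO points do not overlap, and Malat1 lies far to the right of the others.

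Lhx1os (chr11:84525660-84535831, plus strand) starts close to Lhx1, a LIM homeobox transcription factor of the developing nephron, and is transcribed away from it. It had 11.3, 13.8 and 12.6 CPM in WT and 6.24, 6.35 and 5.04 CPM in Trpm2-/- kidneys (log2 fold change -1.10, SE 0.21, adjusted p = 0.00984). All Trpm2-/- values were well below the lowest WT value. Lhx1, 125 bases away, had 9.17 ± 0.809 CPM in WT and 8.68 ± 3.24 CPM in Trpm2-/- kidneys (SD, n = 3 each, log2 fold change -0.08, SE 0.29, adjusted p = 0.895). The lincRNA was called and its neighbour was not, although the difference between their changes was not tested.

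BC049987 and Treh form a pair that was called in the same direction. Treh encodes trehalase, an enzyme of the proximal tubule brush border, and its body lies 995 bases from that of BC049987, with the transcripts pointing apart. Treh had 58.6 ± 12.02 CPM in WT and 15.7 ± 3.62 CPM in Trpm2-/- kidneys (SD, n = 3 each, log2 fold change -1.90, SE 0.21, adjusted p = 0.0015), so both transcripts of the pair fell. The nearest tested protein-coding gene was called in the same direction for 7 of the 25 called lincRNAs, and for 4 of the 21 whose neighbour does not overlap them. In the 3 overlapping pairs, Gm26669, Gm16755 and Gm11752, the genes lie on opposite strands, and the libraries do not mark strand, so their agreement can include the same reads. These neighbours were Treh for BC049987, Tbc1d16, a GTPase-activating protein, for Gm11752 (-1.13, adjusted p = 0.00536), Mrpl12 of the mitochondrial ribosome for Gm16755 (-0.79, 0.0214), Rab3ip, a Rab exchange factor, for D630029K05Rik (-0.57, 0.0171) and Herpud1, of endoplasmic reticulum stress, for Gm15889 (-0.79, 0.0175), the values being log2 fold changes and adjusted p. On the rising side they were Zfp36l1, which binds AU-rich mRNAs, for Gm26669 (0.85, 0.0206) and Arid2, a chromatin remodelling subunit, for 2610037D02Rik (0.60, 0.0278). One pair went in opposite directions, C730036E19Rik at 1.76 and Gm8947, 50031 bases away, at -2.53 (adjusted p = 0.00557). Treh is a transcript of the proximal tubule, whose markers fell together, and that part was not tested.

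Over all 286 lincRNAs the nearest tested protein-coding gene was called in 40 of 286 cases. Among the 25 called lincRNAs it was called for 8 (32.0%), beside 13.1% of protein-coding genes in general. Without the overlapping pairs, which can include the same reads, it was called for 5 of 21 (23.8%). Neither share was tested against the background. Across genes, Pearson's r between the log2 fold changes of the lincRNA and its neighbour was 0.34 for the 111 pairs up to 5 kb apart, 0.15 for the 36 that overlap, 0.09 for 86 pairs over 5 and up to 50 kb apart and -0.08 for the 53 farther apart. These coefficients describe the libraries, with no test, because the pairs come from the same 6 kidneys, some share exons and the 286 pairs use 267 distinct neighbours. For 57 divergent pairs with start sites up to 5 kb apart r was 0.39. Signs were equal in 148 of the 286 pairs.

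**Figure D4:**
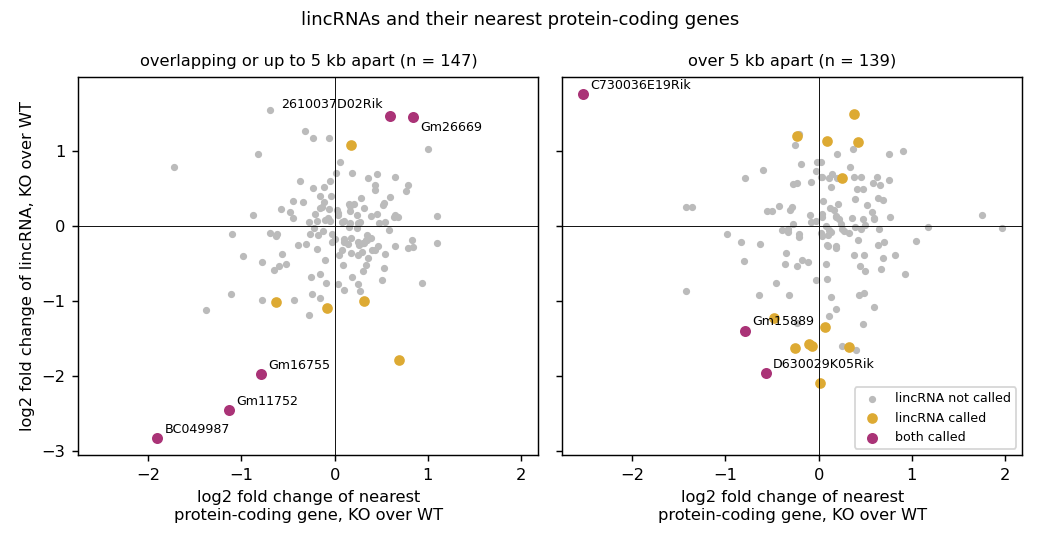
Log2 fold change (KO over WT) of each lincRNA (y axis) against that of its nearest tested protein-coding gene (x axis), for 147 pairs that overlap or lie up to 5 kb apart (left) and 139 pairs farther apart (right). Named points are the 8 pairs in which both were called; 7 lie in the same-direction quadrants and C730036E19Rik lies in the opposite one.

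The 300-base windows around the annotated starts of BC049987, Lhx1os, Malat1 and Mirt1 are printed from RefSeq (GRCm38.p6), 5′ to 3′ with 250 bases before the start. Any matches to 7 searched motifs are in capitals. BC049987 and Lhx1os are the divergent partners of Treh and Lhx1, Malat1 is the most abundant, and the Mirt1 window was printed for its AP-1 match.
BC049987, chr9:44672211-44672510, minus strand: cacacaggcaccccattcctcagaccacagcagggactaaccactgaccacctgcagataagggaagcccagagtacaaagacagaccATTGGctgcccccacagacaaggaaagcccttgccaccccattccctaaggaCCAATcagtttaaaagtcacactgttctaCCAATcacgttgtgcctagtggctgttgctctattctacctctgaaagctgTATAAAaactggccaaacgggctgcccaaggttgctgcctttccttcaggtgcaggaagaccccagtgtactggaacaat
Lhx1os, chr11:84525410-84525709, plus strand: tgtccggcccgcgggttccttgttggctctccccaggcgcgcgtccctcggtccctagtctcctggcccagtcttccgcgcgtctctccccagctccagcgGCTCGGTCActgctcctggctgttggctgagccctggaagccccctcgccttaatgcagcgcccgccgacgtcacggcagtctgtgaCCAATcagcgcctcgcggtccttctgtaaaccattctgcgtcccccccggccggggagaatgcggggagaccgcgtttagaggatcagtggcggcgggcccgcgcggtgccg
Malat1, chr19:5802623-5802922, minus strand: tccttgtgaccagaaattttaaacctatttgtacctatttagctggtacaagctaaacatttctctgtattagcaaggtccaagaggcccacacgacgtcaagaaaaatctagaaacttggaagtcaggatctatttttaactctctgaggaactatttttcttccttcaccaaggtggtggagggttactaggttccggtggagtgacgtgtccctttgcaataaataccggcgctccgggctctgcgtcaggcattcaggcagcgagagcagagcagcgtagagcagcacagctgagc
Mirt1, chr19:53464747-53465046, minus strand: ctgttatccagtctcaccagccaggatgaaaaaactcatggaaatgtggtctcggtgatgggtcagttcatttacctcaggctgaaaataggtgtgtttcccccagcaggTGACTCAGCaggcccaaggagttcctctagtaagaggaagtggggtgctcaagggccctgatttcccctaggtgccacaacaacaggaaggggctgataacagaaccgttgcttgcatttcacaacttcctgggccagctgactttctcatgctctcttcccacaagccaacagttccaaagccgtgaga
The motifs, sought on both strands, were AP-1 with the letters TGANTCA, the cAMP response element (CRE) with the letters TGACGTCA, the E-box with the letters CACGTG, the TATA box with the letters TATAAA, the CCAAT box with those letters, the GC box with the letters GGGCGG and the antioxidant response element (ARE) with the letters TGACNNNGC. Of the 15 windows of called lincRNAs, 2 held an AP-1 match, those of Mirt1 and AC135964.2, and 5 an ARE match. CCAAT was in 10 of the 15, TATA in 3, and GC box, E-box and CRE in 0. These windows came from 13 lincRNAs, and the 2 windows of 0610006L08Rik overlap, so they are not separate promoters. The BC049987 window held 1 TATA and 3 CCAAT matches and the Lhx1os window 1 CCAAT and 1 ARE match. None of the 7 lay in the Malat1 window, which says only that these letters are absent there. In the Mirt1 window the AP-1 and ARE matches overlap. RefSeq windows were found for 153 of the 286 lincRNAs, 190 windows in all. AP-1 was in 11.1% of them and in 7.81% of all 32851 promoter windows, and ARE in 14.7% and 12.4%. E-box was in 8.95% and 7.15%, CRE in 2.63% and 1.79%, TATA in 11.1% and 13.6%, CCAAT in 36.3% and 37.4%, and GC box in 30.5% and 35.7%. A match is a description of the letters and not a measured binding site.

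Several lincRNAs are precursors of miRNAs, and 12 of the 286 span 35 mature miRNAs of RefSeq on their own strand. These miRNAs were not measured in the libraries, so only the host transcripts are described. Sequences are shown for AL805899.1 and Mir155hg, the hosts with the largest differences, and for Mir17hg, the host with the most miRNAs, with the seed (bases 2 to 8) in capitals. The hosts outside the lists were named after their values were seen.
miR-31-5p: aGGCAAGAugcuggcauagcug
miR-155-5p: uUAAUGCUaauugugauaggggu
miR-17-5p: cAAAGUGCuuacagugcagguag
miR-20a-5p: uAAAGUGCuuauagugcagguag
miR-18a-5p: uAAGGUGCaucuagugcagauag
miR-19a-3p: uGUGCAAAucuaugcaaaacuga
miR-19b-3p: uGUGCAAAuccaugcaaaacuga
miR-92a-3p: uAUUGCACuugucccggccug
The miR-17 and miR-20a sequences share the seed AAAGUGC and miR-19a and miR-19b share GUGCAAA, while the other 4 have seeds of their own. None of the 12 hosts was called in edgeR, where all genes gave 12.0%, and 2 had an unadjusted p under 0.05. DESeq2 called 1 of them, AL805899.1, and limma-voom called 0. AL805899.1 (chr4:88909855-88938521, minus strand), host of miR-31, had 3.82, 2.57 and 1.96 CPM in WT and 4.22, 7.101 and 8.34 CPM in Trpm2-/- kidneys (log2 fold change 1.23, SE 0.36, adjusted p = 0.0531). It was called with the DESeq2 Wald test (adjusted p = 0.0113), with no filter (0.00496), without WT 1 (0.0459) and without KO 1 (0.0394), and over all 16 alternatives its adjusted p reached 0.331. It lies 112 kb from Wincr1, which rose. Mir155hg (chr16:84703167-84715245, plus strand), host of the miR-155 of activated immune cells, had 1.48, 0.643 and 1.41 CPM in WT and 2.75, 3.004 and 2.24 CPM in Trpm2-/- kidneys (log2 fold change 1.17, SE 0.40, adjusted p = 0.0904). On log2(FPKM + 1) Mir155hg was called (adjusted p = 0.0395). Groups did not overlap in either of these hosts. Mir17hg (chr14:115042879-115046727, plus strand), the precursor of the miR-17-92 cluster, had 9.56, 8.803 and 12.6 CPM in WT and 10.96, 15.6 and 17.4 CPM in Trpm2-/- kidneys (log2 fold change 0.50, SE 0.23, adjusted p = 0.193), and its groups overlapped. The other 9 hosts had log2 fold changes from -0.45 to 0.55 and adjusted p-values of at least 0.364.

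**Figure D5:**
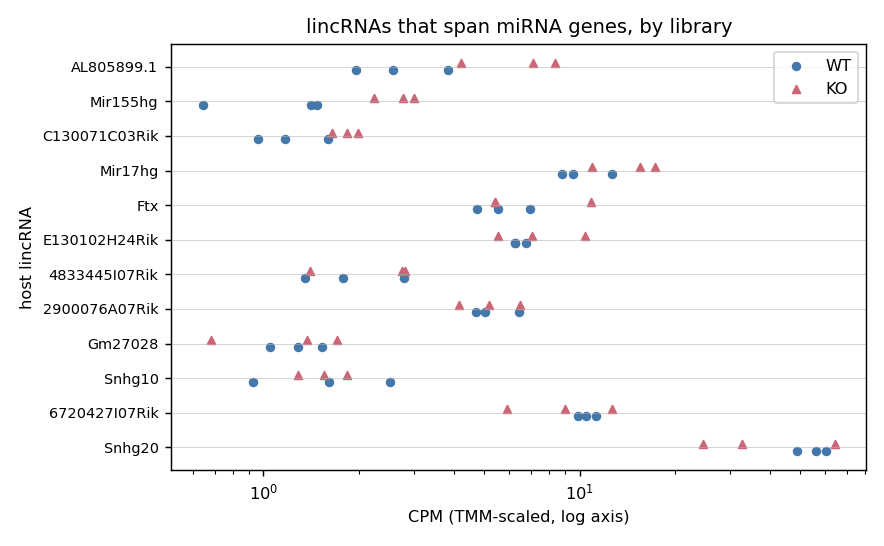
CPM (x axis, log scale) of the 12 lincRNAs that span miRNA genes (y axis, ordered by log2 fold change) in each of 3 WT (circles) and 3 Trpm2-/- (KO, triangles) kidneys. AL805899.1, Mir155hg and C130071C03Rik have KO points above all WT points, and for the other 9 the groups overlap.

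Of 77 long noncoding RNAs on lists of known function, 68 were in the table and 17 were among the 286, of which Malat1 rose and Lhx1os fell. The 4 architectural and nuclear RNAs included 2900097C17Rik, the mouse Norad, which binds Pumilio proteins, with 140.4, 132 and 124 CPM in WT and 160.4, 127 and 109.9 CPM in Trpm2-/- kidneys (log2 fold change 0.00, SE 0.16, adjusted p = 0.993). The 9 small RNA hosts gave no call in edgeR, DESeq2 or limma-voom, and 1 had an unadjusted p under 0.05 in edgeR, so a count of 0 among 9 beside 12.0% of all genes is no result about them. Snhg6, which carries a small nucleolar RNA in an intron, had the lowest adjusted p of the Snhg genes here, 27.7, 37.97 and 32.02 CPM in WT and 34.2, 46.2 and 43.7 CPM in Trpm2-/- kidneys (log2 fold change 0.35, SE 0.17, adjusted p = 0.21). Epb41l4aos had 14.99, 26.2 and 18.8 CPM in WT and 9.92, 19.7 and 12.3 CPM in Trpm2-/- kidneys (log2 fold change -0.52, SE 0.28, adjusted p = 0.271). Snhg12, Snhg18, Snhg20 and Snhg10 had log2 fold changes of -0.26, -0.26, -0.45 and -0.11. Without KO 2, the highest library of Snhg20, its value was -0.95 and it was called (adjusted p = 0.0137). Of the 4 RNAs of p53 and DNA damage, Lncpint, a p53-induced RNA, had 2.04, 2.06 and 1.902 CPM in WT and 3.18, 3.14 and 3.67 CPM in Trpm2-/- kidneys (log2 fold change 0.74, SE 0.29, adjusted p = 0.134), with no overlap, and Pvt1, next to Myc, had a log2 fold change of -0.04 (adjusted p = 0.947). The X inactivation RNAs Jpx and Ftx had -0.09 and 0.33 (adjusted p = 0.924 and 0.554). No imprinted RNA reached the mean count of 20 under the lincRNA biotype.

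Another 51 listed RNAs were in the table and outside the set, 13 as lincRNAs under the mean count and 38 under another biotype. The test covered 30 of them and called 2, beside 12.0% of all genes tested. Kcnq1ot1, the imprinted antisense RNA of Kcnq1, rose (log2 fold change 1.19, adjusted p = 0.0238). Hnf4aos, which lies opposite Hnf4a, fell (log2 fold change -2.49, adjusted p = 0.00166). Both carry the biotype antisense in the table.

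Reads of some lincRNAs cannot be told apart from those of other genes. Exonic bases were shared with another annotated gene for 82 of the 286 and for 8 of the 25 called, and over 10% of them were shared for 44 and for 7. A total of 177 lincRNAs had neither shared exonic bases nor 75-base windows found in another gene, and 17 of the called were among them, 5 higher and 12 lower.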

How the data were processed

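RNA from whole kidneys of 3 WT and 3 Trpm2-/- mice was sequenced from libraries made with the NEBNext Ultra II kit, which does not mark strand. The submitters' processing notes name HISAT2, StringTie and the build mm9, with no role or order given, while positions in the table equal those of GRCm38 (GENCODE M21) for 277 of the 286 lincRNAs, and M21 positions were used for exons. The authors deposited raw read counts per gene (whole numbers, not normalized), and FPKM values, which the authors computed from counts and gene length. The counting tool and its strand setting are not given in the sources used here.

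Counts were fitted on all 54532 genes in R 4.3.3 with edgeR 4.0.16 (TMM, filterByExpr defaults, quasi-likelihood test, two-sided, genotype only, Benjamini-Hochberg over 15816 genes). SE was taken as the size of the log2 fold change over the root of the F statistic. CPM used TMM-scaled library sizes. Alternatives used DESeq2 1.42.0, limma 3.58.1 (voom, and log2(FPKM + 1) or log2(FPKM + 0.1)), other filters and normalizations, the replicate block and each library left out. No label says which libraries came from separate litters or days, so p-values measure the spread between these mice.

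The members and lists were chosen with earlier results of these data known. Named genes are list members, the 10 largest and 10 smallest log2 fold changes among called lincRNAs, the 5 highest by FPKM, those at the edge of the rule, and the nearest tested protein-coding gene within 100 kb. AL805899.1, C130071C03Rik, Gm15889, Gm48558, Gm27216, Gm38102, AI480526, Kcnq1ot1 and Hnf4aos were named after their values were seen. Exon sharing and 75-base windows came from GENCODE M21, promoters and miRNAs from RefSeq (GRCm38.p6).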

Additional observations from a re-analysis of the deposited data

How the results depend on the processing

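Counts of called lincRNAs depended on the settings. Higher calls, 9 as reported, became 14 with no filter on low counts, 14 with the DESeq2 Wald test and 3 with the replicate block, and lower calls, 16 as reported, became 28 with no filter. Leaving out 1 library gave 2 to 8 higher and 7 to 23 lower calls. At the threshold of the methods, limma on log2(FPKM + 1), a scale that shrinks differences of low genes, gave 4 higher and 13 lower against 16 and 24, and leaving out 1 library gave 10 to 20 and 18 to 36. Otherwise the cause was not tested. The replicate numbers 1 and 2 occur in both genotypes, and no label says whether they pair the mice. Deviations from the genotype means hardly correlated between libraries of the same number (0.064 and -0.012). Such values cannot exclude a shared day or batch. WT 3 and KO 4 share their number with no other library, so under the block the genotype effect rests on replicates 1 and 2 alone. Under it 10 of the 25 called lincRNAs lost the call, Wincr1 was at 0.82 and Gm42047 was called at -1.20 (adjusted p = 0.00888).

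Without Malat1 the difference in the lincRNA share of counts went from 0.154 to 0.00018 percentage points. Gm42047, Gm26917, AL805899.1, Mir155hg and Snhg20 were called in at least 1 alternative, as given with their values. The edgeR fit with no filter moved some adjusted p-values far with little change in log2 fold change. AI314278 went from 0.013 (at -2.09) to 5.6e-25 (at -2.10), while Mirt1 went from 0.048 (at 0.65) to 0.064 (at 0.63). The calls of Gm42047, Gm26917 and AL805899.1 with no filter carry that limit.

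Directions changed among named lincRNAs that were not called. The log2 fold change of 2900097C17Rik was -0.0085 with no filter, -0.013 in limma-voom, -0.00076 on log2(FPKM + 1) and -0.0013 on log2(FPKM + 0.1). Pvt1 was at 0.00085 with upper-quartile scaling and 0.14 with the block, Ftx at -0.21 with the block, and Snhg10 at 0.0010 on log2(FPKM + 0.1) and 0.33 with the block. Leaving out 1 library gave -0.16 to 0.13 for 2900097C17Rik, -0.083 to 0.50 for Ftx, -0.33 to 0.26 for Jpx, -0.43 to 0.053 for Neat1, -0.31 to 0.088 for Pvt1 and -0.41 to 0.30 for Snhg10.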
